A study of Homo sapiens with 12 samples.

Results

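The transcripts of 10 genes that are widely used as readouts of RAS-MAPK signalling were followed across oxygen level and ARNT knockdown in AsPC-1 cells, an established human pancreatic cancer line. The 10 genes were taken as a named list (DUSP4, DUSP5, DUSP6, SPRY2, SPRY4, SPRED1, ETV4, ETV5, PHLDA1 and FOSL1) and found by symbol among the 57820 gene IDs counted. The list was chosen with earlier results of these data known. All 10 genes passed the filter on low counts, as did 16999 genes in all. RNA was sequenced from 12 cultures in 4 groups of 3 replicates, A, B and C. Normoxia siControl cells received a scrambled siRNA and stayed at 21% O2, and normoxia siARNT cells received an siRNA against ARNT and stayed at 21% O2. Hypoxia siControl and hypoxia siARNT cells received the same reagents and spent 24 h at 1% O2, the transfected wells having been divided between the oxygen levels on the following day. RNA of all groups was taken 48 h after transfection, so every group, the controls included, had been transfected with lipid and siRNA. All data come from 1 cell line, wells were seeded in triplicate within what the labels describe as 1 experiment, and the labels do not say whether siARNT is 1 siRNA or a pool. The p-values therefore measure the spread between these wells.

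RAS proteins pass growth signals through the kinases RAF, MEK and ERK. ERK raises transcription of ETS factors such as ETV4 and ETV5 and of the AP-1 subunit FOSL1 (FRA-1), and also of genes that dampen the pathway: DUSP phosphatases, which remove phosphate from MAP kinases, and Sprouty and SPRED proteins, which act on the pathway above ERK. ARNT (HIF-1 beta) is the partner of the hypoxia-inducible factors HIF-1 alpha and HIF-2 alpha, which bind DNA only with it, and the aryl hydrocarbon receptor needs it as well. The question the design addresses is which responses to low oxygen differ when ARNT is reduced.

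Gene counts summed to between 38.53 and 84.34 M per library. Each member but DUSP5 had at least 836 reads in every library, and DUSP5 had 46 to 111. ARNT fell from 60.7, 63.6 and 63.0 CPM (counts per M of library, scaled by TMM) in normoxia siControl to 13.3, 12.8 and 14.0 in normoxia siARNT, and from 70.3, 64.9 and 72.2 in hypoxia siControl to 16.0, 15.8 and 14.1 in hypoxia siARNT. Its levels follow the labels in all 12 libraries. Of 6 epithelial markers 5 stood at 5 CPM or more on average, the exception being KRT7. Among 6 fibroblast markers only LUM did (449 CPM), and the 5 leukocyte markers and the 3 endothelial markers matched by symbol each averaged under 1 CPM, with CD3E at 0 reads. In bulk RNA fewer cells of a type and less RNA per cell cannot be told apart.

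DUSP6, PHLDA1 and DUSP4 were the most abundant members per length of transcript in all 4 groups. In normoxia siControl the mean level per kilobase of exon was 39.0 ± 2.08 CPM for PHLDA1, 36.7 ± 0.481 for DUSP4, 34.8 ± 0.757 for DUSP6, 16.8 ± 1.05 for FOSL1, 13.6 ± 0.557 for SPRY4, 12.7 ± 0.23 for SPRY2 and 8.74 ± 0.0847 for ETV5 (SD, n = 3). SPRED1 (4.93 ± 0.212) and ETV4 (4.84 ± 0.344) overlapped each other, and DUSP5 came last at 0.536 ± 0.0971. In hypoxia siControl DUSP6 took the highest place, at 55.6 ± 0.955 CPM per kilobase against 42.4 ± 1.6 for DUSP4 and 38.5 ± 0.773 for PHLDA1. DUSP6 also led in hypoxia siARNT (44.1 ± 0.859), while in normoxia siARNT its range overlapped that of PHLDA1. DUSP4 stood in the third place in both siARNT groups, at 23.8 ± 0.13 in normoxia and 23.4 ± 0.845 in hypoxia. The plot of the members' levels shows all 12 libraries for each gene.

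**Figure D1:**
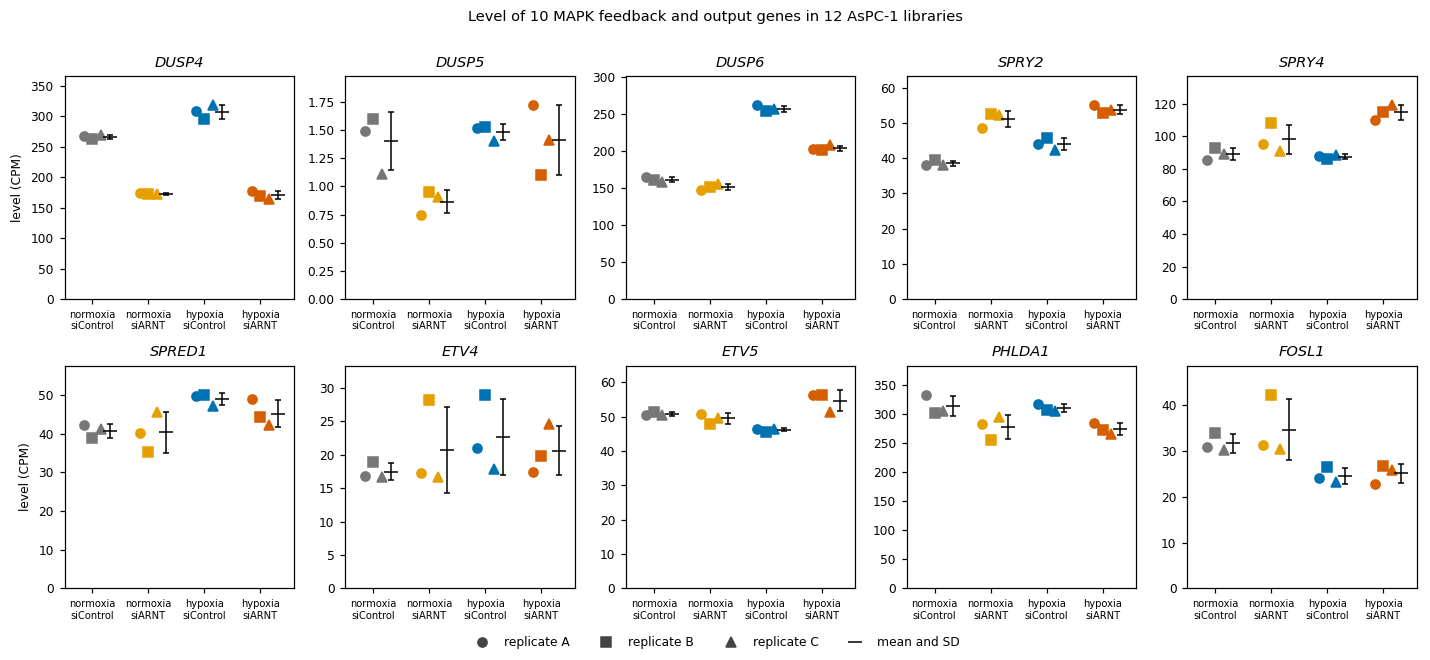
Level of each of the 10 genes in CPM (vertical axes from 0, a separate scale for each gene) in the 4 groups; symbols stand for replicates A, B and C, and the bar beside them for mean and SD (n = 3). DUSP6 is highest in hypoxia siControl (254 to 262 CPM), DUSP4 falls to 164 to 177 CPM in both siARNT groups, and ETV4 and FOSL1 spread widely in normoxia siARNT.

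Low oxygen in siControl cells raised 4 of the 10 genes (DUSP6, DUSP4, SPRY2 and SPRED1) and lowered FOSL1. These 5 calls at an adjusted p under 0.05 (edgeR's quasi-likelihood test, Benjamini-Hochberg over 16999 genes, used throughout) compare with 25.3% of all tested genes called, 10.4% upwards and 14.9% downwards. The values of the 2 groups did not overlap for 6 of the 10 members, against 46.8% of all genes. The median log2 fold change was 0.13 over the 10 members and 0.02 over all genes. Only the calls of DUSP6 and DUSP4 held in each of the 12 fits that left out 1 library. SPRY2, SPRED1 and FOSL1 lay close to the threshold, as their values below show.

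Low oxygen in siARNT cells raised DUSP6 and gave no other call among the members, while 4.09% of all tested genes were called, 2.21% upwards and 1.89% downwards. For 6 of the 10 members the 2 groups did not overlap (22.2% of all genes). FOSL1 (log2 fold change -0.46, adjusted p 0.0544) and DUSP5 (0.72, adjusted p 0.0634) came nearest to the threshold. The median was 0.11 over the members and -0.04 over all genes. Rises made up 53.9% of all calls here, 65.8% with total count scaling and 37.3% with GC offsets.

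Knockdown of ARNT in normoxia lowered DUSP4 and DUSP5 and raised SPRY2. The 3 calls among 10 members compare with 20.2% of all tested genes (9.42% upwards and 10.8% downwards), and the 5 members without overlap between the groups with 46.5%. In hypoxia the knockdown lowered DUSP4 and DUSP6 and raised SPRY2, SPRY4 and ETV5, which is 5 of 10 members against 29.1% of all genes called (14.4% upwards and 14.7% downwards). Here 6 members did not overlap, against 40.3% of all genes. Rises made up 49.6% of all calls in hypoxia and 63.8% with total count scaling. Members therefore moved in both directions under siARNT, and the medians over the 10 were -0.02 in normoxia and -0.09 in hypoxia, against 0.01 and 0.02 over all genes. The comparisons share groups with each other, so their calls are not independent. Wells were also divided between the oxygen levels, so the knockdown comparisons in normoxia and in hypoxia share transfections.

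The interaction subtracts the log2 response to hypoxia of siControl cells from that of siARNT cells. It was called for 0 of the 10 members and for 4.69% of all tested genes (2.49% upwards and 2.19% downwards). Rises made up 53.2% of these calls and 75.3% with total count scaling. At an unadjusted p under 0.05 there were 5 members, DUSP4, DUSP5, DUSP6, SPRY4 and ETV5, against 20.8% of all genes. DESeq2 called 1 member, DUSP6 (difference -0.24, adjusted p 0.0418). When counts were fitted with offsets for the GC content of genes, DUSP6 (-0.32, adjusted p 0.00267), SPRY4 (0.25, 0.00602), ETV5 (0.24, 0.0141) and DUSP5 (0.87, 0.0422) were called. That fit called 3085 of 16999 genes, against 797 in the reported fit. With a block for the replicate letter added to the GC offsets, DUSP4 was called as well (-0.20, adjusted p 0.0449). For these 5 genes the difference between the hypoxia responses with and without ARNT knockdown was thus called by some methods and not by others. The plot of fold changes gives all 50 values.

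**Figure D2:**
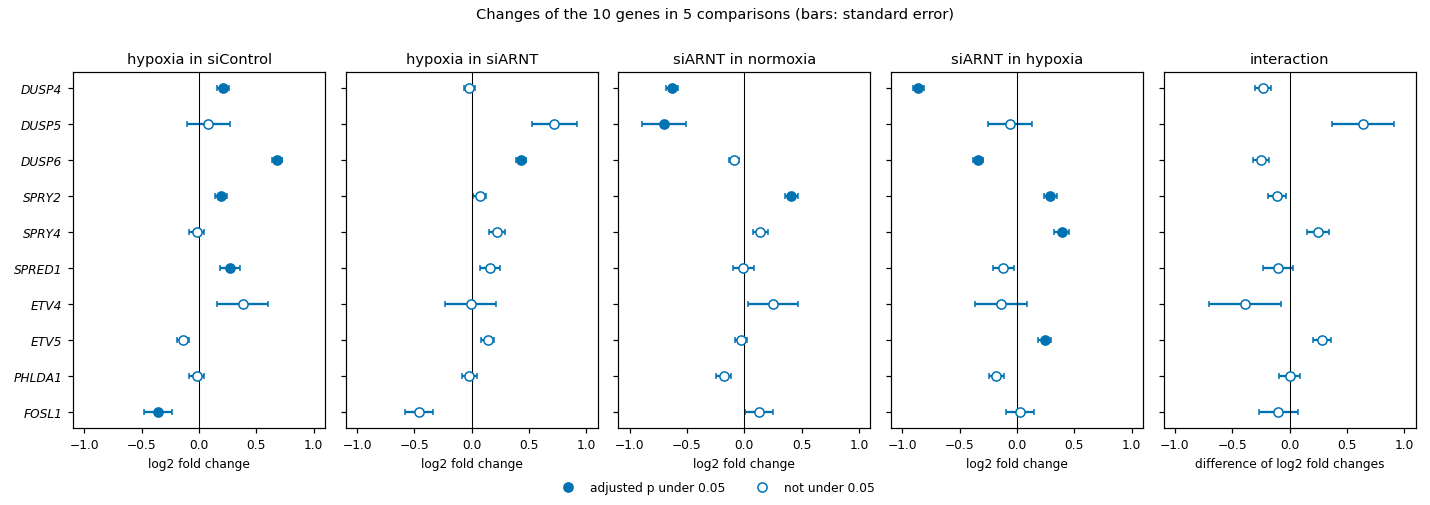
Log2 fold change of each member (horizontal axis, the same range in each panel) in the 5 comparisons; bars are standard errors, filled circles have an adjusted p under 0.05. DUSP4 stands at -0.63 and -0.86 in the siARNT comparisons, SPRY2 at 0.41 and 0.29, and no circle is filled in the interaction panel.

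Among the phosphatases, DUSP6 (MKP-3) is the cytoplasmic phosphatase that is selective for ERK. It stood at 165, 161 and 158 CPM in replicates A, B and C of normoxia siControl and at 262, 254 and 257 in hypoxia siControl. In siARNT cells it stood at 147, 152 and 155 in normoxia and at 203, 201 and 208 in hypoxia. The 2 hypoxic groups lay above both normoxic groups in every library, and within hypoxia all siARNT libraries lay below all siControl libraries. Low oxygen raised DUSP6 1.6-fold in siControl cells (log2 0.68, SE 0.0474, adjusted p 3.18e-06) and 1.35-fold in siARNT cells (log2 0.43, SE 0.0474, adjusted p 0.00168). The second call was lost when only the 6 siARNT libraries were fitted (adjusted p 0.0669, log2 0.45), a fit that called 22 genes in all. Knockdown lowered DUSP6 in hypoxia (log2 -0.34, SE 0.0473, adjusted p 0.000241) and gave -0.09 in normoxia (adjusted p 0.174). An RNA annotated on the opposite strand, AC024909.2, shares 1875 of the 4632 exon bases of DUSP6 (GENCODE 29), is not among the gene IDs counted, and whether the counting used strand is not given in the sources used here.

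DUSP4 (MKP-2) is a nuclear phosphatase of ERK, JNK and p38. It stood at 267, 263 and 269 CPM in normoxia siControl and at 309, 295 and 318 in hypoxia siControl, against 174, 172 and 172 in normoxia siARNT and 177, 169 and 164 in hypoxia siARNT. The 6 siARNT libraries thus lay below the 6 siControl libraries with a wide gap and overlapped each other across oxygen levels. As wells were divided between the oxygen levels, the 6 libraries of an siRNA are not 6 separate transfections, here or for other members. Knockdown lowered DUSP4 to 0.648 of the siControl level in normoxia (log2 -0.63, SE 0.0497, adjusted p 1.03e-05) and to 0.552 in hypoxia (log2 -0.86, SE 0.0499, adjusted p 3e-07), and both calls held in all 20 alternatives run. Low oxygen raised it in siControl cells (log2 0.21, SE 0.0495, adjusted p 0.00908) and gave -0.02 in siARNT cells (adjusted p 0.816). The rise was lost without a filter on low counts (adjusted p 0.0748). The difference between these responses was -0.23 (SE 0.0701, adjusted p 0.0876). That difference was called with GC offsets and a block for the replicate letter (-0.20, adjusted p 0.0449).

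DUSP5, a nuclear phosphatase selective for ERK, was scarce. In siControl cells it stood at 1.49, 1.60 and 1.11 CPM in normoxia and at 1.52, 1.53 and 1.40 in hypoxia. In siARNT cells it stood at 0.748, 0.947 and 0.903 in normoxia and at 1.72, 1.1 and 1.41 in hypoxia. Its 3 lowest values were the normoxia siARNT libraries, and the other 3 groups overlapped. Knockdown lowered DUSP5 in normoxia (log2 -0.70, SE 0.193, adjusted p 0.0265). The call was lost without normoxia siControl replicate A (0.086), normoxia siControl replicate B (0.0806) or normoxia siARNT replicate A (0.072). In hypoxia the change was -0.06 (SE 0.19, adjusted p 0.834). The hypoxia change of DUSP5 in siARNT cells (log2 0.72, adjusted p 0.0634) was called by DESeq2 (0.73, adjusted p 0.0442), with total count scaling (0.74, 0.0472) and with GC offsets (0.86, 0.00762). The phosphatases therefore differed in order: DUSP4 was low in both siARNT groups, DUSP6 was high in both hypoxic groups, and DUSP5 was low in normoxia siARNT.

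SPRY2 and SPRY4 are membrane-associated inhibitors of receptor tyrosine kinase signalling to RAS and RAF, and SPRED1 recruits neurofibromin to RAS. Reference sequences are shown for SPRY2 and SPRY4, the inhibitors that rose together under siARNT in hypoxia, and for the stretch of DUSP6 that holds its only match, all from RefSeq on GRCh38.p14. The table of promoters used holds 5 of the 10 members (DUSP6, PHLDA1, SPRED1, SPRY2 and SPRY4). The windows are the 250 bases before the annotated start, 5′ to 3′ on the gene's strand, with motif matches in capitals. SPRY2 has 3 annotated starts, of which the farthest upstream is shown (chr13:80341127-80341376, minus strand); its window holds no GENCODE 29 exon. The SPRY4 window (chr5:142324248-142324497, minus strand) shares 170 bases with an exon of a noncoding SPRY4 transcript. The 25 bases of DUSP6 (chr12:89352540-89352564, minus strand) lie in exon 1 of the longest GENCODE 29 transcript.
SPRY2: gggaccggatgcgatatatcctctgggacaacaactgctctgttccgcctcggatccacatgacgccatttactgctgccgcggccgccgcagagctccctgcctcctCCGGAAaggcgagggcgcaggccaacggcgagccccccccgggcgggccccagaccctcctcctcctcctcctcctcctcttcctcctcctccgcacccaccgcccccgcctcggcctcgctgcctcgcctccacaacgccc
SPRY4: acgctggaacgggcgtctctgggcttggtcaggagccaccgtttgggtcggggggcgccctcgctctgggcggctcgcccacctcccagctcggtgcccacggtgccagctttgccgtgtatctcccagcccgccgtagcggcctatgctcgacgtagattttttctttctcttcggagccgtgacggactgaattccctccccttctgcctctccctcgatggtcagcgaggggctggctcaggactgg
DUSP6: ccttccgcagCACGCtcattggctg
The 5 motifs searched, on both strands, were ACGTG and GCGTG, the core of the hypoxia response element that HIF dimers bind, TGANTCA (AP-1), CCGGAA (ETS) and TGACGTCA (CRE). The SPRY2 window shown holds CCGGAA 142 to 137 bases before the start, and SPRY4 holds none of the 5. The windows before the other SPRY2 starts, nearer to the gene, were searched as well and hold none of the 5. DUSP6 holds GCGTG, read as CACGC on the gene's strand, 53 to 49 bases before the start, and PHLDA1 holds CCGGAA on the other strand 89 to 84 bases before its start. The PHLDA1 and SPRED1 windows each share all 250 bases with GENCODE 29 exons of their own gene. Of all 35116 RefSeq promoter windows of this length 32.2% hold GCGTG, 18.5% ACGTG, 14.5% CCGGAA, 6.57% TGANTCA and 1.65% TGACGTCA, and no binding was measured here.

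SPRY2 stood at 38.2, 39.4 and 38.1 CPM in normoxia siControl and at 48.6, 52.6 and 52.3 in normoxia siARNT. In hypoxia it stood at 43.9, 45.7 and 42.2 in siControl and at 55, 52.7 and 53.7 in siARNT. All siARNT libraries lay above all siControl libraries, in the opposite order to DUSP4. The rise under siARNT was 1.33-fold in normoxia (log2 0.41, SE 0.0553, adjusted p 0.000527) and 1.22-fold in hypoxia (log2 0.29, SE 0.0553, adjusted p 0.00195), and both calls held in all 20 alternatives. Low oxygen raised SPRY2 by less in siControl cells (log2 0.19, SE 0.0554, adjusted p 0.0272). This call was lost without any 1 of the 3 normoxia siControl libraries or without hypoxia siControl replicate A or B, at adjusted p from 0.0587 to 0.0738. It was also lost without a filter on low counts (0.2) and with a block for the divided well, read from the replicate letter (0.0709). In siARNT cells the hypoxia change was 0.07 (adjusted p 0.487).

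SPRY4 stood at 85.3, 92.6 and 89.1 CPM in siControl cells in normoxia and at 88.0, 85.9 and 88.6 in hypoxia. In siARNT cells it stood at 95.2, 108 and 91.2 in normoxia and at 110, 115 and 119 in hypoxia. The hypoxia siARNT libraries were the 3 highest, and the other groups lay within a narrower band apart from normoxia siARNT replicate B. Knockdown raised SPRY4 1.31-fold in hypoxia (log2 0.39, SE 0.0673, adjusted p 0.00108), a call that held in all 20 alternatives. In normoxia the change was 0.14 (SE 0.0671, adjusted p 0.144). The hypoxia change was -0.02 in siControl cells (adjusted p 0.83) and 0.22 in siARNT cells (adjusted p 0.0821). Without normoxia siARNT replicate B the latter was called (log2 0.30, adjusted p 0.0265), as was the interaction (0.34, adjusted p 0.0384). With GC offsets calls were gained for siARNT in normoxia (0.14, adjusted p 0.0132) and for hypoxia in siARNT cells (0.23, adjusted p 0.000993).

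SPRED1 stood at 42.3, 38.8 and 41.1 CPM in normoxia siControl and at 49.8, 50.1 and 47.2 in hypoxia siControl, with no overlap. In siARNT cells it stood at 40.2, 35.2 and 45.6 in normoxia and at 49.0, 44.4 and 42.2 in hypoxia, with overlap. The rise in siControl cells was 1.2-fold (log2 0.27, SE 0.0902, adjusted p 0.0478). It was also called with GC offsets (0.32, adjusted p 0.000243) and with a block for the replicate letter (0.27, 0.0391). The same held with the block and GC offsets together (0.31, 0.000303) and in the 6 siControl libraries alone (0.26, 0.00672). It was not called with RLE size factors (0.0533), with total count scaling (0.0532), by DESeq2 (0.0625), without a filter (0.0525) or with a block for the divided well (0.0731). It was also lost without any 1 of the 6 siControl libraries, without normoxia siARNT replicate A or without hypoxia siARNT replicate B, at adjusted p from 0.0661 to 0.153. The other 3 comparisons of groups gave SPRED1 values from -0.12 to 0.16, none called.

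Of the transcription factors, ETV5, an ETS factor of the PEA3 group, stood at 50.5, 51.3 and 50.4 CPM in normoxia siControl and at 50.9, 47.9 and 49.7 in normoxia siARNT. In hypoxia it stood at 46.5, 45.6 and 46.4 in siControl and at 56.4, 56.3 and 51.2 in siARNT. The hypoxia siControl libraries were the 3 lowest. Knockdown raised ETV5 in hypoxia (log2 0.24, SE 0.0548, adjusted p 0.00558), a call lost without a filter on low counts (adjusted p 0.0762). The hypoxia change was -0.14 in siControl cells (adjusted p 0.0912) and 0.14 in siARNT cells (adjusted p 0.165), and the difference of 0.28 had an adjusted p of 0.0651. The fall in siControl cells was called with total count scaling (-0.16, adjusted p 0.0257), with GC offsets (-0.13, 0.0271) and in the 6 siControl libraries alone (-0.15, 0.0404). Without hypoxia siARNT replicate C that difference was called (0.32, adjusted p 0.0264), as was that of DUSP6 (-0.26, adjusted p 0.0481).

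ETV4, a close relative of ETV5, stood at 16.8, 18.9 and 16.7 CPM in siControl cells in normoxia and at 21.0, 29 and 17.9 in hypoxia. In siARNT cells it stood at 17.3, 28.2 and 16.7 in normoxia and at 17.4, 19.8 and 24.6 in hypoxia. All 4 groups overlapped, with 1 library of each group other than normoxia siControl standing above its partners. None of the 5 comparisons was called for ETV4, and its standard errors, 0.222 to 0.315, were the largest among the abundant members. FOSL1 stood at 30.8, 33.9 and 30.2 CPM in normoxia siControl and at 24.0, 26.6 and 23.2 in hypoxia siControl. In siARNT cells it stood at 31.2, 42.3 and 30.5 in normoxia and at 22.7, 26.7 and 25.9 in hypoxia. Hypoxic libraries lay below normoxic ones with either siRNA. The fall in siControl cells was called (log2 -0.36, SE 0.121, adjusted p 0.046), and that in siARNT cells was not (-0.46, SE 0.121, adjusted p 0.0544). The first was lost without any 1 of the 6 siControl libraries or without hypoxia siARNT replicate B or C, at adjusted p from 0.0514 to 0.144. The second was called by DESeq2 (-0.46, adjusted p 0.0142) and without a filter on low counts (-0.48, adjusted p 0.00974). It shrank to -0.29 without normoxia siARNT replicate B (adjusted p 0.0969) and to -0.26 with GC offsets (adjusted p 0.0927), which moved the fall in siControl cells to -0.56 (adjusted p 0.000668).

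ETV4 and FOSL1 are the most GC-rich members. Their exons hold 60.8% and 60% G or C, against 38.9 to 55.9% in the other 8 members. For each library a slope of gene level on gene GC content was computed, in log2 units per 10 percentage points of GC. It was highest in normoxia siARNT replicate B (0.424), hypoxia siARNT replicate C (0.238) and hypoxia siControl replicate B (0.12), which are the libraries with the highest ETV4 in their groups. FOSL1 was highest in the same library in normoxia siARNT and hypoxia siControl, but in hypoxia siARNT it was highest in replicate B, whose slope was 0.019. The slopes of the other 9 libraries ran from -0.205 to 0.019. With GC offsets in the fit, the change of ETV4 under siARNT in normoxia moved from 0.25 to -0.27 (adjusted p 0.0063) and that of FOSL1 from 0.13 to -0.32 (adjusted p 0.0288), so their direction depended on this choice. ETV4 also moved from -0.01 to 0.22 in the hypoxia comparison of siARNT cells (adjusted p 0.03). DUSP4 and DUSP6 showed no such order in the plot against the slope. SPRED1, the most GC-poor member (38.9%), was lowest in its group in normoxia siARNT replicate B (35.2 CPM) and hypoxia siARNT replicate C (42.2). In hypoxia siControl, however, it was highest in replicate B (50.1). With GC offsets the change of SPRED1 under siARNT in normoxia moved from -0.01 to 0.14 (adjusted p 0.0647).

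**Figure D3:**
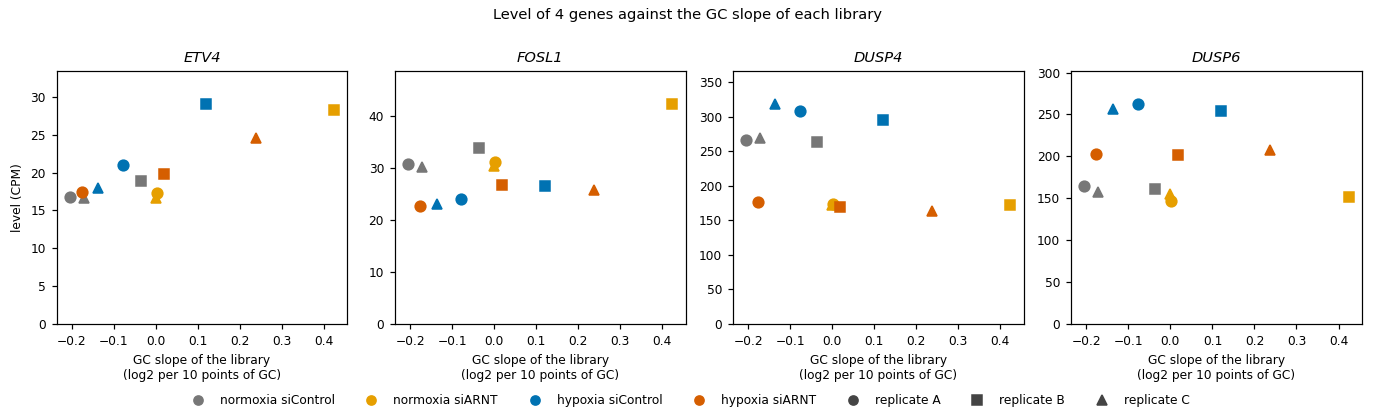
Level of ETV4, FOSL1, DUSP4 and DUSP6 in CPM (vertical axes from 0) against the GC slope of each of the 12 libraries (horizontal axis, log2 per 10 percentage points of GC); colours stand for groups and symbols for replicates. The library with the highest slope, 0.424, has the highest FOSL1 (42.3 CPM) and 1 of the 2 highest ETV4 values (28.2 CPM), while DUSP4 is split by siRNA at any slope.

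PHLDA1, a pleckstrin-homology-like protein whose transcript is induced by ERK signalling, stood at 334, 303 and 306 CPM in normoxia siControl and at 318, 308 and 306 in hypoxia siControl. With siARNT it stood at 283, 255 and 296 in normoxia and at 285, 273 and 266 in hypoxia. All siARNT libraries lay below all siControl libraries, yet the change of -0.18 in normoxia (SE 0.0644, adjusted p 0.0669) and of -0.18 in hypoxia (SE 0.0645, adjusted p 0.0572) did not pass the threshold. The first was called without normoxia siARNT replicate C (adjusted p 0.0452) and the second without normoxia siARNT replicate B (adjusted p 0.0332) or with GC offsets (-0.16, adjusted p 0.0119). With GC offsets the change in normoxia shrank to -0.05 (adjusted p 0.43), and with total count scaling that in hypoxia shrank to -0.10 (adjusted p 0.249). The hypoxia change of PHLDA1 was -0.02 with either siRNA.

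Other genes of the pathway were read from 3 lists. These were chosen with earlier results of these data known, so their counts of calls describe the lists and do not test them. In the core cascade, from adaptors and RAS to ERK and its nuclear targets, 26 genes were tested. Low oxygen in siControl cells raised 3 of them and lowered 1, that is 4 of 26 where 25.3% of all tested genes were called. In siARNT cells, where 4.09% of all genes were called, edgeR and DESeq2 each called 0, with 6 at an unadjusted p under 0.05. Knockdown raised 4 and lowered 1 in normoxia (20.2% of all genes called), and raised 3 and lowered 2 in hypoxia (29.1%). The interaction was called for 0 by edgeR and DESeq2, with 1 at an unadjusted p under 0.05. GRB2, the adaptor that brings SOS to receptors, rose under siARNT from 45.1 ± 0.872 to 71.0 ± 4.06 CPM in normoxia (log2 0.65, adjusted p 0.000103) and from 47.5 ± 3.42 to 68.6 ± 4.53 in hypoxia (log2 0.53, adjusted p 0.000173; SD, 3 libraries each). SOS1, the exchange factor that activates RAS, fell under siARNT by 0.60 and 0.66 on the log2 scale (adjusted p 0.00137 and 0.000299). Under low oxygen in siControl cells SOS2 (log2 0.35, adjusted p 0.0333) and SOS1 (log2 0.31, adjusted p 0.0323) rose, calls that held in 6 and 7 of 12 fits leaving out 1 library.

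Of 16 further feedback genes 14 were tested, DUSP14 being unmatched by symbol and RASAL1 too low. Low oxygen in siControl cells raised 3 and lowered 2, where 25.3% of all tested genes were called. In siARNT cells 1 rose and 1 fell (4.09% of all genes called). Knockdown raised 3 and lowered 0 in normoxia (20.2% of all genes called), and raised 4 and lowered 2 in hypoxia (29.1%). The interaction was called for 3, of which 1 was positive (4.69% of all genes called). ERRFI1 (MIG6), an inhibitor of the EGF receptor, stood at 145 ± 5.78 CPM in normoxia siControl and 289 ± 18.6 in hypoxia siControl (log2 0.99, adjusted p 3.92e-06), and at 177 ± 9.5 and 226 ± 18.1 in the siARNT groups (log2 0.36, adjusted p 0.0248, held in 7 of 12 fits leaving out 1 library). The interaction was called for it (-0.63, adjusted p 0.00605). DUSP1 (MKP-1), an immediate early phosphatase, rose under low oxygen in siControl cells from 19.0 ± 1.12 to 28.7 ± 3.77 CPM (log2 0.59, adjusted p 0.00164) and fell under siARNT in hypoxia (log2 -0.81, adjusted p 0.00015). DUSP1 also had an interaction call (-0.72, adjusted p 0.021), which held in 7 of 12 fits leaving out 1 library. DUSP10, a phosphatase of JNK and p38, rose under siARNT in normoxia (log2 0.60, adjusted p 0.000873) and in hypoxia (log2 0.51, adjusted p 0.00114), where its relative DUSP4 fell. DUSP7, a further ERK phosphatase, rose under siARNT in normoxia (log2 0.71, adjusted p 0.00412) and by 0.30 with GC offsets; its fall under low oxygen in siARNT cells (log2 -0.54, adjusted p 0.0452) held in 2 of 12 such fits.

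A further 26 output genes, mostly immediate early and growth-related transcripts, were tested. Low oxygen in siControl cells raised 10 and lowered 3, where 25.3% of all tested genes were called. The median was 0.30 against 0.13 over the members. Under siARNT in hypoxia 4 rose and 8 fell (29.1% of all genes called), with a median of -0.16. The interaction was called for 6, all negative (4.69% of all genes called). In siARNT cells low oxygen changed 1, CCND1 (cyclin D1, log2 -0.22, adjusted p 0.0348, held in 1 of 12 fits), where 4.09% of all genes were called. In normoxia knockdown raised 5 and lowered 1 (20.2% of all genes called). FOS, an AP-1 subunit like FOSL1, went from 8.43 ± 0.742 CPM in normoxia to 30.6 ± 3.06 in hypoxia in siControl cells, and from 8.92 ± 1.55 to 9.88 ± 1.09 in siARNT cells. Its rise in siControl cells was 1.86 on the log2 scale (adjusted p 3.9e-06) and its interaction -1.71 (adjusted p 0.000471). FOSL2 (FRA-2), another FOS family subunit, was at 142 ± 3.08 CPM in hypoxia siControl and between 72.3 and 74.6 in the means of the other 3 groups (log2 0.92 for hypoxia in siControl, interaction -0.88, adjusted p of the latter 0.000178). FOS and FOSL2 thus rose where FOSL1 fell. JUNB, whose GC content is 64.9%, rose under low oxygen in siControl cells (log2 1.09, adjusted p 0.029, held in 8 of 12 fits). With GC offsets its rise was 0.74 (adjusted p 4.8e-06). PLAU, the protease urokinase, rose under siARNT in normoxia (log2 0.62, adjusted p 0.00129), as did its receptor PLAUR (log2 0.70, adjusted p 0.0459, held in 4 of 12 fits). With GC offsets these rises were 0.48 for PLAU (adjusted p 4.18e-07) and 0.46 for PLAUR (adjusted p 0.00937).

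**Figure D4:**
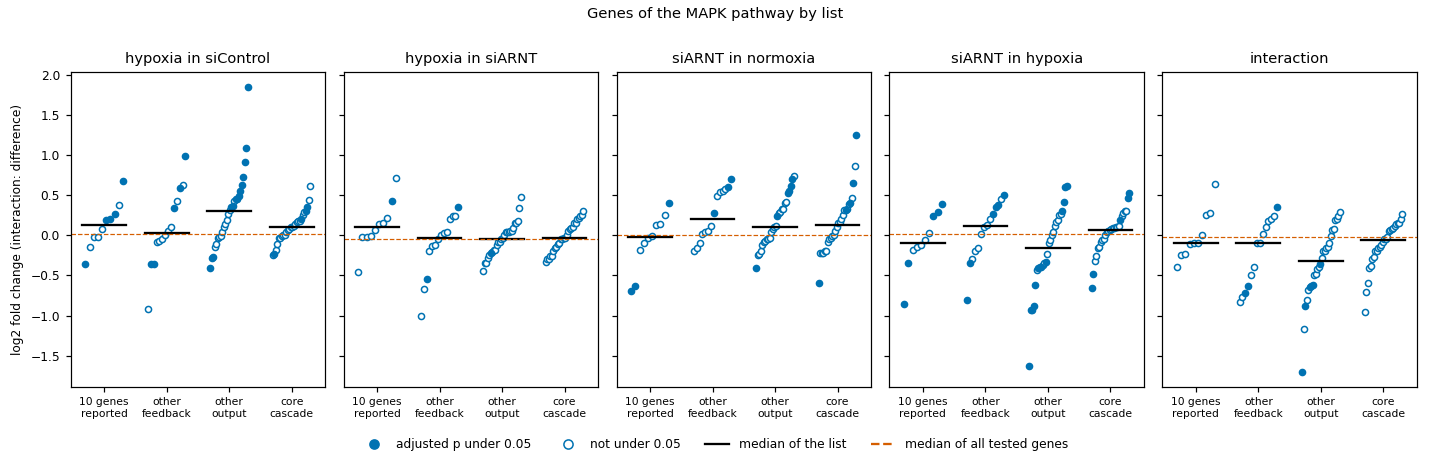
Log2 fold change of each gene (vertical axis; in the last panel the difference of log2 fold changes) in the 10 genes reported and in 3 further lists of the pathway, for the 5 comparisons; filled circles have an adjusted p under 0.05, black lines are list medians and the dashed line is the median of all tested genes. The further output genes have a median of 0.30 for hypoxia in siControl and -0.32 in the interaction, while the 10 genes stand at 0.13 and -0.10.

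The genes whose log2 CPM followed a member most closely over the 12 libraries were sought among the 9734 genes averaging 5 CPM or more, as a description without a test. For DUSP6 these were PNMA2 (Pearson r = 0.989), YPEL2 (0.988) and RBM33 (0.988). For SPRY4 they were TNFRSF10B, a death receptor (0.968), TACC2 (0.966) and HTRA1, a secreted protease (0.965). For FOSL1 they were GATB (0.974), CCDC86 (0.973) and CRCP (0.971). The 12 points share 4 groups and the GC slopes of the libraries, and 9734 genes were ranked.

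The splicing of the members was read from deposited junction counts of 5 kinds of event. These list 12 events in 6 of the members (DUSP6, SPRY2, SPRY4, ETV4, ETV5 and FOSL1), of which 9 had enough reads to be fitted. The skipped DUSP6 exon was included at a percent spliced in of 98.1 ± 0.8% in siControl cells in normoxia and 97.6 ± 0.489% in hypoxia, and of 96.6 ± 2% and 98.5 ± 1.01% in siARNT cells (SD, n = 3), with 172 to 373 junction reads per library. A FOSL1 exon was included at 83.2 ± 7.52% in normoxia siControl and 89.9 ± 5.11% in hypoxia siControl, from 14 to 83 reads. In siARNT cells this exon was included at 83.1 ± 7.61% in normoxia and 80.8 ± 9.74% in hypoxia. The 4 fitted ETV5 events were included at 90.9 to 100% in every library. None of the 45 tests was called (limma, lowest adjusted p 0.639, 1 test at an unadjusted p under 0.05), and of all 39230 events fitted 0.0331% were called for hypoxia in siControl, 0.0484% for hypoxia in siARNT, 0.0204% for siARNT in normoxia, 0.0408% for siARNT in hypoxia and 0.0357% for the interaction. In simulated data for hypoxia in siControl, with 39257 events fitted, 36.7% of changes of 1.5 on the log2 odds scale were called. Those changes were placed only in well-read events of intermediate inclusion, with no spread between replicates beyond the sampling of reads. Apart from the FOSL1 exon, which had few reads, the fitted member events lay nearer to full inclusion or exclusion. The simulated rate therefore does not measure how often changes in the member events would be called. The coordinates of these events did not match GRCh38 and are not printed.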

How the data were processed

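Stranded poly(A) libraries of 12 AsPC-1 cultures were read single-end. The deposited gene files hold counts, whole numbers of reads per gene ID, and HTSeq appears in their names. The submitters' processing notes list STAR 2.4.2a, Trimmomatic and GRCh38.p10 with no roles, and counting settings are not given in the sources used here. The deposited event files give junction counts and, as a fraction, the share of the inclusion form, which recomputing from the counts matched. Lines that name no gene (22.71 to 25.2% of reads) were left out. No value column was without a sample. A second deposited table holds the same counts, and intron retention was not analysed here.

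edgeR 4.0.16 in R 4.3.3 was used for the genes (TMM, filterByExpr, robust quasi-likelihood fit to all 12 libraries, 1 mean per group), with Benjamini-Hochberg adjustment over 16999 genes in each comparison. Standard errors were derived from the F statistics (fold change in log2 over the square root of F). Junction events with at least 20 reads on average in each group were tested with limma 3.58.1 on log2 of inclusion over exclusion reads, each plus 0.5. In simulated data for hypoxia in siControl (16717 genes fitted) 49% of changes of 0.3 and 100% of changes of 0.6 on the log2 scale were called. The simulation gave all genes the same spread and no GC slope, and placed changes only in genes with more reads than DUSP5. It also changed a far smaller share of genes than the 25.3% called in the data, which made the adjusted threshold stricter. Its rates therefore do not measure how often changes of these sizes in the members would be called. Nor do they carry over to DUSP5 or to members with a larger spread, such as ETV4 (SE 0.223 for hypoxia in siControl). Symbols came from the reference's table of gene names, and exon lengths and GC content from GENCODE 29. Alternatives were RLE and total count scaling, DESeq2 1.42.0, no filter, GC offsets, replicate blocks, only the 6 libraries compared, and each library left out. The members, the lists and the motifs were chosen with earlier results of these data known. The rule for named genes took the members, ARNT, the 2 called genes of each list with the largest change in each comparison at a mean of at least 5 CPM, and 3 genes most like each of DUSP6, SPRY4 and FOSL1. KRT7, LUM and CD3E were named after their values were seen.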

Additional observations from a re-analysis of the deposited data

How the results depend on the processing

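Over 1020 values of the members under alternatives, 34 lost a call, 38 gained one in the same direction, 6 changed sign with a call and 942 stayed on their side of the threshold. Of the 942, 53 changed sign while called in neither fit. No member called in the reported fit changed sign. The reversed values arose with GC offsets, without and with the replicate block: ETV4 under siARNT in normoxia (-0.27 in both), FOSL1 in the same comparison (-0.32 in both) and ETV4 for hypoxia in siARNT (0.22 in both). Leaving out 1 library gave 2 to 5 called members for hypoxia in siControl (2873 to 5242 of all genes), 1 to 2 for hypoxia in siARNT (129 to 707), 2 to 4 for siARNT in normoxia (1571 to 4148), 5 to 6 for siARNT in hypoxia (3537 to 5847) and 0 to 2 for the interaction (272 to 1188). Called members for hypoxia in siControl numbered 2 without a filter. For hypoxia in siARNT they numbered 2 with total count scaling, 3 with DESeq2, 2 without a filter, 4 with GC offsets and 0 with only the 6 libraries compared. For siARNT in normoxia they numbered 6 with GC offsets. For the interaction they numbered 1 with total count scaling, 1 with DESeq2 and 4 with GC offsets. The causes were not tested. The called member events stayed at 0 under all alternatives run.

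Libraries with the same letter had deviations from their group means correlated from -0.43 to 0.53. For pairs that could share a divided well, the values were 0.07, 0.30 and 0.08 (siControl) and 0.52, -0.03 and -0.43 (siARNT). The deviations also carry the GC slopes of the libraries, so the correlations cannot show whether a letter marks a divided well. The reported fit did not pair libraries, and blocks by letter and by well were run as alternatives. With the letter as a replicate block, 2 members were called for hypoxia in siARNT, and PHLDA1 was called for siARNT in normoxia (-0.18, adjusted p 0.0438) and in hypoxia (-0.18, adjusted p 0.0392). With the replicate block and GC offsets, 4 were called for hypoxia in siARNT, 6 for siARNT in normoxia and 5 for the interaction. With a replicate block by well, which assumes that a letter marks the divided well, 3 were called for hypoxia in siControl.

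Over all genes, GC offsets raised the calls from 4299 to 7171 (hypoxia in siControl), 696 to 3813 (hypoxia in siARNT), 3431 to 5463 (siARNT in normoxia), 4948 to 7825 (siARNT in hypoxia) and 797 to 3085 (interaction), and with the block to 7423, 4091, 5831, 8057 and 3290. For hypoxia in siARNT 22 genes were called in the 6 libraries alone, 136 with the block by well and 129 without hypoxia siARNT replicate B. The interaction had 1495 calls with total count scaling, 373 with the block by well and 272 without normoxia siControl replicate C. That library also gave the lowest counts for siARNT in normoxia and for hypoxia in siControl. DUSP5 had 46 to 111 reads per library, the fewest among the members.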
